A study of Mus musculus with 15 samples.

Results

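The genes described here are 9 thermogenic effector genes that encode no uncoupling protein: Dio2, Otop1, Kcnk3, Cox7a1, Cox8b, Letmd1, Pank1, Eva1a and Slc29a1. They were taken by symbol from a table of 37991 mouse Ensembl gene identifiers, and each of the 9 symbols matched 1 identifier. The study sequenced polyadenylated RNA of whole adipose tissue from mice lacking interleukin-33 (IL-33, an alarmin cytokine that signals through the receptor ST2) and from wild-type mice, and its title ties this pathway to uncoupled respiration in beige and brown adipocytes. All 15 libraries came from the C57BL/6 strain. The labels do not name the brown depot. The 4 groups were brown adipose tissue of IL-33-/- mice at postnatal day 0.5 (4 libraries), brown adipose tissue of wild-type mice at postnatal day 0.5 (4 libraries), inguinal white adipose tissue of IL-33-/- mice at postnatal day 24 (3 libraries, numbered 2 to 4) and inguinal white adipose tissue of wild-type mice at postnatal day 24 (4 libraries). The labels give the IL-33-/- genotype without saying how the allele was made. Whether libraries of 1 group came from different animals is not stated, so the p-values reflect the spread from library to library, part of which may be technical.

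Brown and beige adipocytes make heat by burning fuel in mitochondria whose proton gradient is short-circuited, mainly by the uncoupling protein Ucp1, after noradrenaline has raised cyclic AMP. The 9 genes are grouped here as effectors around that core, and whether each acts there was not tested. Dio2 encodes the type II deiodinase that converts thyroxine into the active thyroid hormone inside the cell, Otop1 a proton channel, and Kcnk3 a two-pore potassium leak channel that sets the membrane potential. Cox7a1 and Cox8b encode the heart- and muscle-type isoforms of cytochrome c oxidase subunits, which brown fat shares with striated muscle. Letmd1 encodes a mitochondrial inner membrane protein needed for thermogenesis in mouse brown fat, and Pank1 encodes pantothenate kinase 1, which starts coenzyme A synthesis. Eva1a encodes a membrane protein linked to autophagy and is not the epithelial V-like antigen gene Mpzl2, an older brown fat marker that also went by the name Eva1. Slc29a1 encodes the equilibrative nucleoside transporter ENT1, which moves adenosine and inosine across the plasma membrane.

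The promoters of 5 of the genes are printed because the results turn on them: Dio2, whose level varied most between libraries, Otop1 and Letmd1, whose knockout effects differed between the tissues, and the isoform genes Cox7a1 and Cox8b. Each runs from 250 bases before the annotated start to 50 bases from it, 5′ to 3′ on the gene's strand, from RefSeq on GRCm38.p6. Dio2 lies at chr12:90738989-90739288 (minus strand), Otop1 at chr5:38277154-38277453 (plus), Cox7a1 at chr7:30183921-30184220 (plus), Cox8b at chr7:140900397-140900696 (minus) and Letmd1 at chr15:100468761-100469060 (plus). Capitals mark every match, on either strand, to 8 motifs: the cyclic AMP response element TGACGTCA, the nuclear receptor half-site AGGTCA, the direct repeat 1 element of paired half-sites, the estrogen-related receptor element TCAAGGTCA, the E-box CACGTG, the TATA box TATAAA, the GC box GGGCGG and the CCAAT box CCAAT. The half-site is contained in the direct repeat 1 element and in the estrogen-related receptor element.
Dio2: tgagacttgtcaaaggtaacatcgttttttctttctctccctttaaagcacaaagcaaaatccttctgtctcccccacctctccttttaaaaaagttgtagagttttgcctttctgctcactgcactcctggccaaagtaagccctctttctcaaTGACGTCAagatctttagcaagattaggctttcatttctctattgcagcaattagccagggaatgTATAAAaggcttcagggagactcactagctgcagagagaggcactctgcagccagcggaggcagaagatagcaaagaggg
Otop1: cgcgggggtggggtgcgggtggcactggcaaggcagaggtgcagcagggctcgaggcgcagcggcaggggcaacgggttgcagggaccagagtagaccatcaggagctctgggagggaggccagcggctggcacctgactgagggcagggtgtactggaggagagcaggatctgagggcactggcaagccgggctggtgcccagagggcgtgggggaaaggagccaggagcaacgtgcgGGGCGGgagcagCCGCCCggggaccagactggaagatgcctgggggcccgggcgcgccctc
Cox7a1: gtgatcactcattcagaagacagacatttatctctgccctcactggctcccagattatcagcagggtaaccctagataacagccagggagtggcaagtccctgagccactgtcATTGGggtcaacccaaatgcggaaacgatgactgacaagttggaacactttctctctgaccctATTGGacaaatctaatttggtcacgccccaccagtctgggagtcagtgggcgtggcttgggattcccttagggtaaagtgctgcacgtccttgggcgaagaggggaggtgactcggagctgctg
Cox8b: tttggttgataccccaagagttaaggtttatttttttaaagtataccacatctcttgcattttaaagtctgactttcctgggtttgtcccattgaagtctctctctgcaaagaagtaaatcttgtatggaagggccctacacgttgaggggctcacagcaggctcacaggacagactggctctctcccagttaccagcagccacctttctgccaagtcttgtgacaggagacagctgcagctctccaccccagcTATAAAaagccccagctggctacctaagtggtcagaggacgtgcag
Letmd1: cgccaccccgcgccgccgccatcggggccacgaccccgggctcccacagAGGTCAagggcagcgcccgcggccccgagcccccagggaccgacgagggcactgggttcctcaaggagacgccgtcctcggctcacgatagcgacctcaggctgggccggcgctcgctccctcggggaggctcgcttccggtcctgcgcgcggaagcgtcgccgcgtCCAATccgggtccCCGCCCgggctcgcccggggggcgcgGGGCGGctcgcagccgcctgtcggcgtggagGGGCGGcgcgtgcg

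With the first transcribed base counted as 1 and the base before it as -1, the Dio2 promoter held the full cyclic AMP response element with its first base at -95, and a TATA box at -30. The element was found in 1 of the 9 genes and in 1.79% of the 32851 promoters of this length in the table. Otop1 held 2 GC boxes and no other motif searched, Cox7a1 held 2 CCAAT boxes in reverse orientation, and Cox8b held a TATA box at 5, inside the annotated transcript. Letmd1 held a half-site at -201, a CCAAT box and 3 GC boxes. Over all annotated starts of the 9 genes (2 for Pank1, 8 for Slc29a1 and 1 for each of the others), a half-site was found for 2 genes (16.3% of all promoters), an E-box for 2 (7.15%), a TATA box for 3 (13.6%), a GC box for 4 (35.7%) and a CCAAT box for 4 (37.4%). The direct repeat 1 element (0.0396%) and the estrogen-related receptor element (0.423%) were found for none of the 9. A gene was counted if any of its starts matched, but the percentages are shares of single promoters, so they are unlike measures. Slc29a1, with 8 starts, entered the half-site, E-box, GC box and CCAAT counts. A match describes these letters only.

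Total counts per library ran from 33782634 to 40802095 in brown labelled knockout, from 31661512 to 41926108 in brown wild type, from 30835337 to 38765633 in inguinal knockout and from 26059635 to 53923009 in inguinal wild type. Il33 itself was 0.346, 0.471 and 0.0791 CPM (counts scaled to library size with edgeR's TMM factors) in inguinal knockout libraries 2 to 4, against 3.45 to 4.61 CPM in inguinal wild type, with a log2 difference of -3.73 (SE 0.36, adjusted p = 1.25e-05 in edgeR's quasi-likelihood test). In brown adipose tissue the libraries labelled knockout had 0.413, 1.75, 1.41 and 0.594 CPM of Il33, against 1.73 to 3.21 CPM in wild type. These ranges overlap, and the edgeR test gave a log2 difference of -1.08 (SE 0.44, adjusted p = 0.229), so Il33 does not separate the brown genotypes, and the word labelled is kept for the brown knockout libraries. Labelled knockout library 1 lay apart from the other brown libraries of its label: on the first principal component of the brown libraries (42.1% of the variance) it scored -37.0, against 24.8 to 51.4 for labelled knockout libraries 2 to 4 and -26.6 to -19.3 for wild type. Epithelial markers summed to 92.4 CPM in labelled knockout library 4 and to at most 1.56 CPM in every other brown library. Ucp1 was present at 1557 to 3235 CPM in brown labelled knockout, 2480 to 6777 CPM in brown wild type, 1620 to 2098 CPM in inguinal knockout and 601 to 1049 CPM in inguinal wild type, so its transcript was found in every library.

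In the wild-type tissues, 6 of the 9 genes were higher in brown adipose tissue at day 0.5 than in inguinal adipose tissue at day 24: Pank1, Letmd1, Cox7a1, Slc29a1, Kcnk3 and Cox8b. Dio2, Otop1 and Eva1a did not pass the test. The tissue and the age differ together and cannot be told apart, nor can more cells of a type be told apart from more RNA per cell in these whole-tissue libraries. The call rested on the edgeR quasi-likelihood test with Benjamini-Hochberg adjustment at 0.05, which called 61.4% of the 15979 genes tested in this comparison and 30.7% as higher in brown tissue. The median log2 difference of the 9 genes was 0.84, against 0.01 for all genes tested.

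Pank1 had 284.5, 259.3, 240.1 and 238.4 CPM in brown wild-type libraries 1 to 4, against 79.3, 75.8, 80.4 and 61.0 CPM in inguinal wild-type libraries 1 to 4, a log2 difference of 1.79 (SE 0.098, edgeR adjusted p = 4.01e-08). Letmd1 had 439.3, 405.7, 518.1 and 478.0 CPM in brown wild type and 177.6, 165.2, 161.8 and 145.0 CPM in inguinal wild type (log2 1.504, SE 0.093, edgeR adjusted p = 1.03e-07). Every brown library was above every inguinal library for both genes. Cox7a1 differed by 1.36 (SE 0.093), Slc29a1 by 0.98 (SE 0.11), Kcnk3 by 0.84 (SE 0.085) and Cox8b by 0.73 (SE 0.11) on the log2 scale, and none of these 4 overlapped between the tissues either. A gap without overlap, higher in brown, was found for 27.7% of all genes tested. Skeletal muscle markers moved the same way: 12 of 14 tested were higher in brown wild type and Pvalb and Myh4 were lower (median log2 3.68), and the list summed to between 2481 and 4252 CPM in brown wild-type and between 151.2 and 427.5 CPM in inguinal wild-type libraries. Of 4 heart muscle genes tested 3 were higher and none was lower. Cox7a1 and Cox8b are also made in striated muscle, and the part of muscle RNA in the values of these genes was not tested. Otop1 gave a log2 difference of 0.84 with a much larger error (SE 0.34, edgeR adjusted p = 0.0657, 95% interval 0.04 to 1.64), since brown wild-type libraries 3 and 4 had 134.6 and 133.2 CPM and libraries 1 and 2 had 53.7 and 59.4 CPM. Leaving out brown wild-type library 1 or 2 brought Otop1 past the threshold (log2 1.04 and 1.01, edgeR adjusted p = 0.0202 and 0.0375). It also passed with DESeq2 (adjusted p = 0.0280) and in edgeR fits with non-robust dispersions (0.0223), a filter at a mean of 5 CPM (0.0408) or all 4 groups (0.0425).

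**Figure D1:**
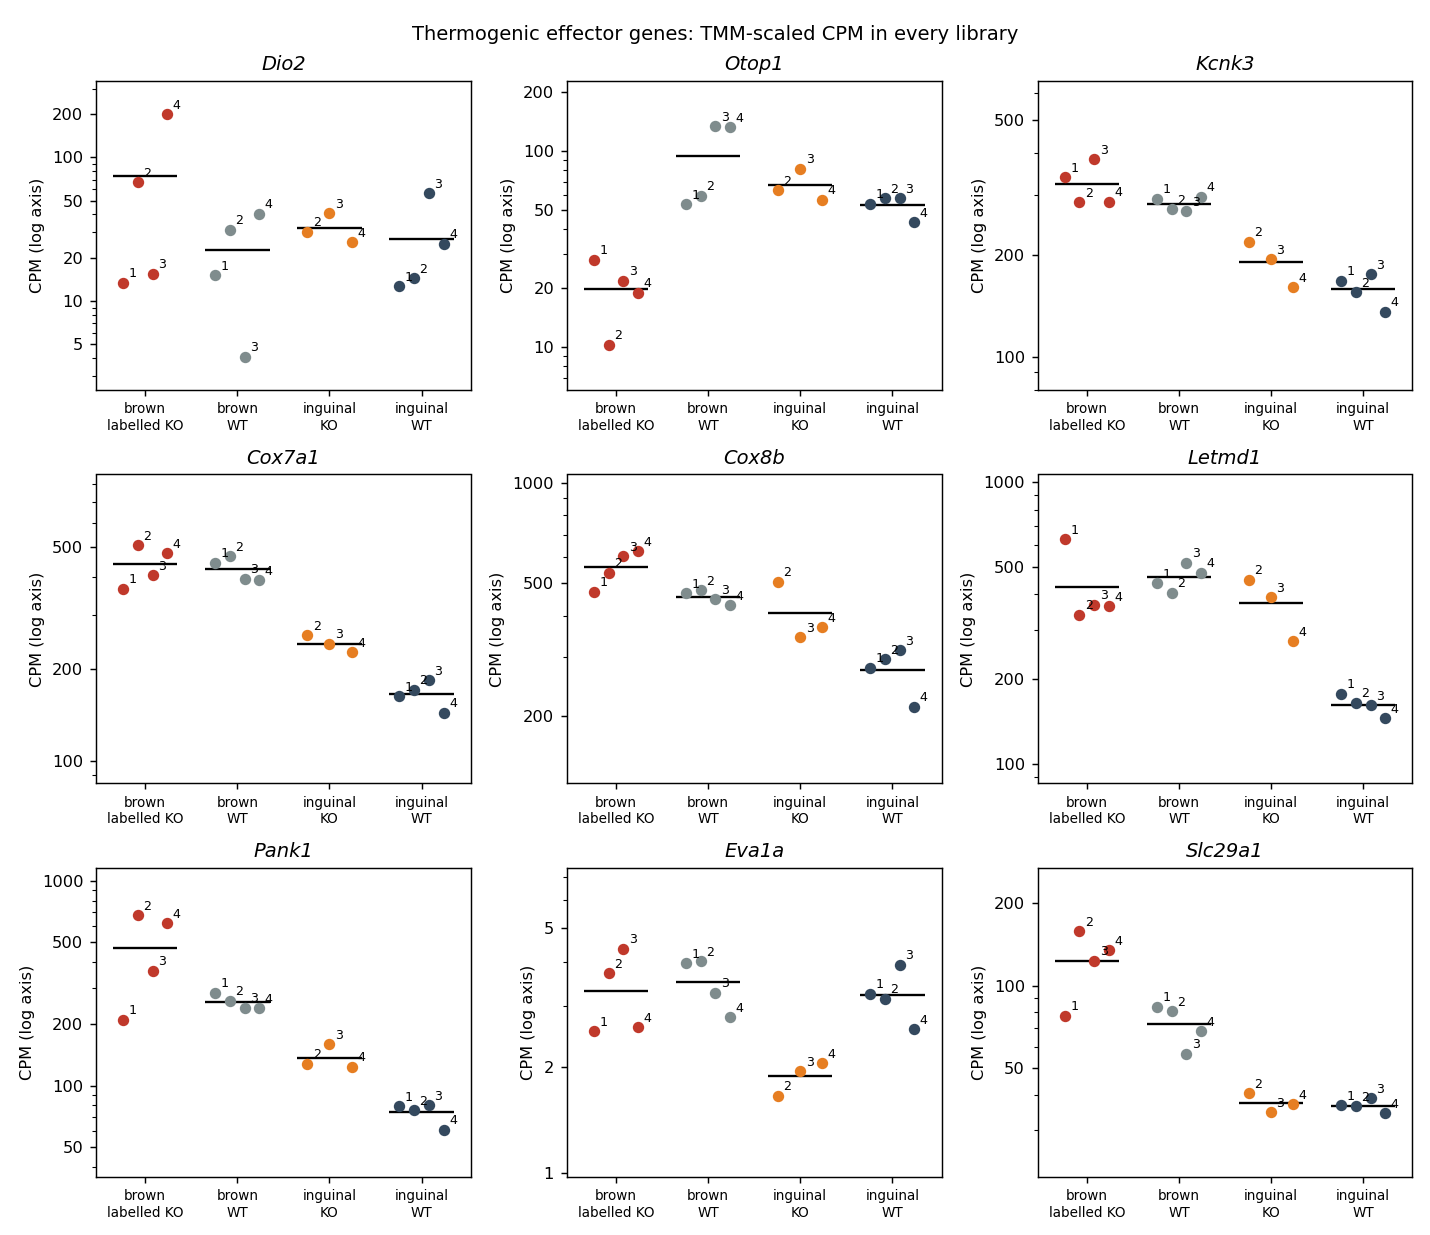
TMM-scaled CPM (log axis) of each of the 9 genes in each library, with the library number beside the point and a line at the group mean, for brown labelled knockout, brown wild type, inguinal knockout and inguinal wild type. Otop1 sits between 10.3 and 28.1 CPM in the brown labelled knockout libraries and at 43.4 CPM or more in all the others, while Letmd1 and Pank1 sit higher in the inguinal knockout than in the inguinal wild-type libraries.

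Per kilobase of exon, the 9 genes differed widely in level. In brown wild type Cox8b averaged 1265 CPM per kb and Cox7a1 791 CPM per kb, next to 2885 CPM per kb for Ucp1. Letmd1 followed with 94.97, Kcnk3 with 71.2, Pank1 with 30.9, Otop1 with 27.7 and Slc29a1 with 18.0 CPM per kb, and Dio2 with 3.92 and Eva1a with 1.25 CPM per kb were the lowest. The level of a gene relative to its own groups differed as well. For Cox7a1 and Pank1 the group order was brown labelled knockout, brown wild type, inguinal knockout, inguinal wild type, with the 2 brown groups overlapping and each later step without overlap. Kcnk3 and Slc29a1 had the same order, but their only gap without overlap lay between brown wild type and inguinal knockout. For Otop1 the only such gap lay at the bottom, between inguinal wild type and brown labelled knockout, and for Eva1a between inguinal wild type and inguinal knockout. Letmd1 and Cox8b overlapped among the upper 3 groups and lay apart only in inguinal wild type. Dio2 had no gap anywhere in its order.

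In inguinal adipose tissue, 4 of the 9 genes were higher in the knockout and 1 was lower. Letmd1 rose most (2.31-fold), followed by Pank1 (1.86-fold), Cox8b (1.49-fold) and Cox7a1 (1.48-fold), while Eva1a fell to 0.598 of the wild-type level. Dio2, Otop1, Kcnk3 and Slc29a1 did not pass the test. The edgeR quasi-likelihood test called 28.6% of the 15710 genes tested in this comparison, 15.3% as higher and 13.3% as lower. The median log2 change of the 9 genes was 0.35, against -0.02 for all genes tested.

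Letmd1, the mitochondrial inner membrane protein gene, had 450.9, 391.8 and 272.4 CPM in inguinal knockout libraries 2 to 4, against 177.6, 165.2, 161.8 and 145.0 CPM in inguinal wild-type libraries 1 to 4. The log2 change was 1.21 (SE 0.14, 95% interval 0.90 to 1.52, edgeR adjusted p = 9.46e-05). Every knockout library exceeded every wild-type library, and knockout library 4 was the lowest of its group. Pank1, the pantothenate kinase gene, had 127.6, 159.3 and 123.4 CPM in inguinal knockout, against 79.3, 75.8, 80.4 and 61.0 CPM in wild type, a change of 0.90 in log2 (SE 0.11, edgeR adjusted p = 9.25e-05). All 3 knockout libraries lay above all 4 wild-type libraries. In the fit of all 4 groups together the Pank1 adjusted p was 0.0517.

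Cox7a1 had 257.1, 241.3 and 226.1 CPM in inguinal knockout and 162.5, 170.8, 183.4 and 143.6 CPM in inguinal wild type (log2 0.56, SE 0.098, edgeR adjusted p = 0.000926). Cox8b had 505.8, 344.0 and 368.3 CPM in inguinal knockout and 278.6, 295.4, 314.5 and 213.2 CPM in wild type (log2 0.57, SE 0.15, edgeR adjusted p = 0.0142). Neither gene overlapped between the groups, and Cox8b was highest in knockout library 2. Groups without overlap, higher in the knockout, were found for 18.3% of all genes tested. Muscle markers are given here too. Of 14 skeletal muscle genes tested 12 were lower in the inguinal knockout (13.3% of all genes) and none was higher. The list summed to between 46.9 and 53.7 CPM in knockout and between 151.2 and 427.5 CPM in wild-type libraries. Tnnc2, a fast troponin C gene on the list, was at 0 counts in all 3 knockout libraries. It also had too few counts to be tested between the wild-type tissues, so its 0 says little. Of 3 heart muscle genes tested 2 were lower in the inguinal knockout and none was higher. The muscle markers thus moved opposite to Cox7a1 and Cox8b, and their part in these 2 results was not tested.

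Eva1a was the lowest of the 9 genes, with 1.66, 1.95 and 2.06 CPM in inguinal knockout and 3.24, 3.14, 3.93 and 2.57 CPM in inguinal wild type. The log2 change was -0.74 (SE 0.21, 95% interval -1.18 to -0.30, edgeR adjusted p = 0.0155), from 184 reads summed over the knockout and 480 over the wild-type libraries. No knockout library reached the lowest wild-type library, a pattern that 18.5% of all genes tested shared in the direction of a lower knockout level. Under a filter at a mean of 5 CPM the gene was not tested.

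Otop1, the proton channel gene, had 63.3, 81.8 and 56.7 CPM in inguinal knockout and 54.2, 57.9, 57.6 and 43.4 CPM in inguinal wild type. Its log2 change of 0.35 (SE 0.13, 95% interval 0.07 to 0.63) had an edgeR adjusted p of 0.0619, and the ranges overlapped through knockout library 4. Without that library it was 0.47 (edgeR adjusted p = 0.0175), and Otop1 also passed with DESeq2 (adjusted p = 0.0476) and without a filter on low counts (edgeR adjusted p = 0.0239). Kcnk3, the potassium channel gene, had 218.6, 194.3 and 160.4 CPM in inguinal knockout and 167.6, 155.0, 175.1 and 136.0 CPM in wild type (log2 0.29, SE 0.12, edgeR adjusted p = 0.0835). Here too knockout library 4 lay inside the wild-type range, and without it the log2 change was 0.41 (edgeR adjusted p = 0.0156). With no filter on low counts the Kcnk3 edgeR adjusted p was 0.0474.

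Dio2, the deiodinase gene, had 30.4, 40.7 and 25.6 CPM in inguinal knockout and 12.7, 14.4, 56.4 and 25.0 CPM in inguinal wild type. The log2 change of 0.27 carried an SE of 0.58 (95% interval -1.18 to 1.72, edgeR adjusted p = 0.776), and the wild-type libraries alone ranged 4.44-fold. Wild-type library 3 had the highest value of both groups, and without it the log2 change was 0.89 (edgeR adjusted p = 0.0495). Slc29a1, the nucleoside transporter gene, had 40.6, 34.6 and 37.1 CPM in inguinal knockout and 36.8, 36.5, 39.1 and 34.4 CPM in wild type (log2 0.04, SE 0.092, edgeR adjusted p = 0.759). Its 95% interval ran from -0.15 to 0.24, which makes it the most narrowly bounded of the genes that did not pass.

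Cell composition markers were read beside the inguinal changes. The brown adipocyte list, which contains Ucp1, summed to between 2332 and 2902 CPM in inguinal knockout and between 1133 and 1711 CPM in inguinal wild type, with 2 of 5 tested genes higher (Ucp1 and Cidea) and none lower. The general adipocyte list summed to between 19904 and 21187 CPM in knockout and between 19173 and 21497 CPM in wild type. Of 7 general adipocyte genes tested 2 were higher (Plin1 and Pnpla2) and none was lower. Epithelial markers summed to between 0.941 and 1.27 CPM in knockout and between 3.17 and 9.90 CPM in wild type. Only 1 of the 7, Cdh1, had enough counts to be tested, and it was lower. Krt5 and Krt15, at 0 counts in the knockout, were too low to be tested. B cell markers summed to between 5.70 and 16.2 CPM in knockout and between 13.8 and 25.3 CPM in wild type. Of 8 B cell genes 2 were lower and none was higher. Endothelial markers summed to between 752.4 and 822.6 CPM in knockout and between 858.0 and 1043 CPM in wild type. Of 6 endothelial genes 3 were lower and none was higher. None of 7 T cell and 5 red blood cell genes was called, and 1 of 6 macrophage genes was lower. Of 6 adipose progenitor genes, 1 was higher and 2 were lower. Of all genes tested, 15.3% were higher and 13.3% lower. The part of these markers in the changes of the 9 genes was not tested.

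**Figure D2:**
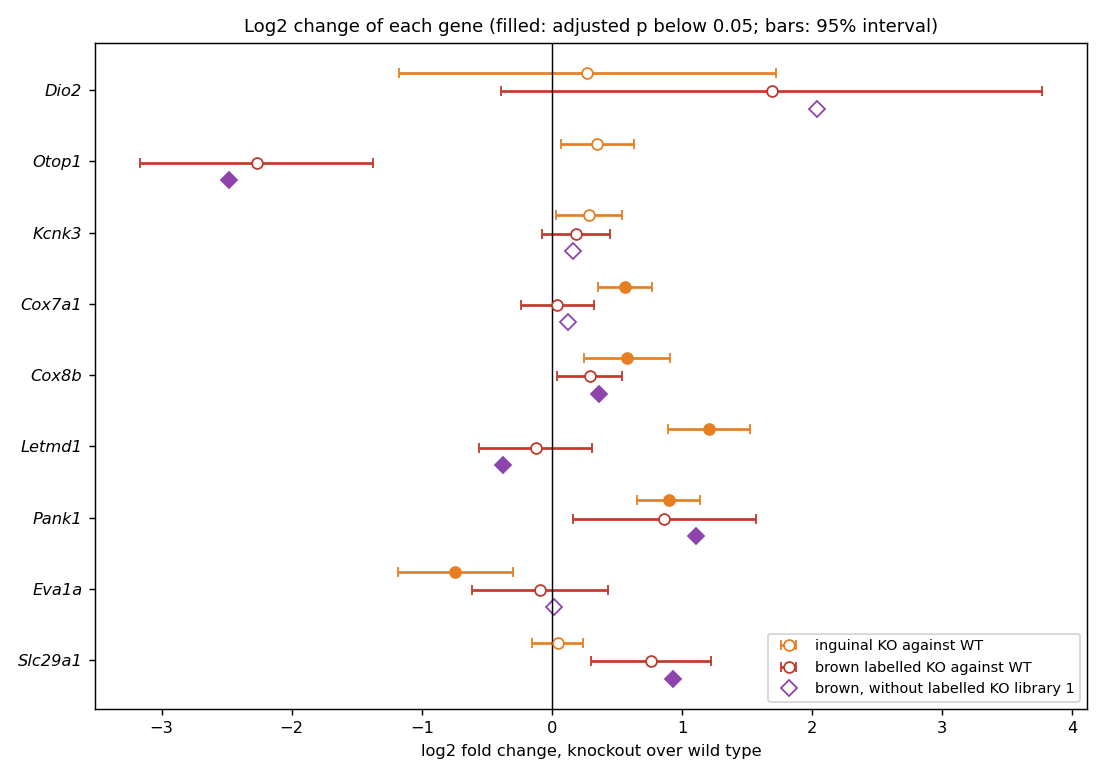
Log2 fold change of knockout over wild type for each gene in inguinal adipose tissue (orange circles) and brown adipose tissue (red circles), with 95% intervals, and in brown adipose tissue without labelled knockout library 1 (purple diamonds). Filled symbols had an edgeR adjusted p below 0.05: 5 genes in the inguinal tissue, none in the brown tissue and 5 in the brown tissue without that library. Leaving out any other brown library instead (not shown) called none of the genes.

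In brown adipose tissue none of the 9 genes passed the edgeR test between labelled knockout and wild type, where 0.26% of 15796 genes did. Otop1 was nevertheless lower in all 4 labelled knockout libraries than in any wild-type library, by 2.27 on the log2 scale (0.207 of the wild-type level), and Slc29a1 and Pank1 were above the wild-type range in labelled knockout libraries 2 to 4 but not in library 1. At an unadjusted p under 0.05 the same test named 4 of the 9 genes (Cox8b, Otop1, Pank1 and Slc29a1) and 18.5% of all genes tested. DESeq2 called 2 of the 9 genes (Otop1 and Slc29a1) beside 6.53% of all genes, the fit of all 4 groups together called the same pair beside 6.83%, and limma-voom called none beside 0.171%. The median log2 change of the 9 genes was 0.19, against 0.01 for all genes tested.

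Otop1 had 28.1, 10.3, 21.9 and 19.0 CPM in brown labelled knockout libraries 1 to 4, against 53.7, 59.4, 134.6 and 133.2 CPM in brown wild-type libraries 1 to 4. The log2 difference of -2.27 had an SE of 0.40 and a 95% interval of -3.17 to -1.38 (edgeR adjusted p = 0.0660). It was the only one of the 9 genes whose groups did not overlap in this tissue, which was so for 9.74% of all genes tested and, in this direction, for 4.86%. Wild-type libraries 3 and 4 stood well above wild-type libraries 1 and 2 in Otop1, and they were split alike in Ucp1, at 6380 and 6777 CPM in libraries 3 and 4 and 2480 and 3246 CPM in libraries 1 and 2.

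Pank1 had 209.4, 679.3, 363.1 and 619.0 CPM in brown labelled knockout and 284.5, 259.3, 240.1 and 238.4 CPM in brown wild type (log2 0.87, SE 0.31, edgeR adjusted p = 0.196). Slc29a1 had 77.8, 157.3, 123.3 and 134.7 CPM in brown labelled knockout and 83.7, 80.8, 56.6 and 68.1 CPM in wild type (log2 0.76, SE 0.21, edgeR adjusted p = 0.123). In both genes labelled knockout library 1 lay with the wild-type libraries or below them. Letmd1 had 628.0, 338.6, 367.6 and 363.6 CPM in brown labelled knockout and 439.3, 405.7, 518.1 and 478.0 CPM in wild type (log2 -0.13, SE 0.19, edgeR adjusted p = 0.766). For Letmd1 the same library 1 was the highest of all 8, while labelled knockout libraries 2 to 4 lay below every wild-type library.

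Dio2 varied most between libraries, with 13.4, 67.3, 15.5 and 199.4 CPM in brown labelled knockout and 15.1, 31.3, 4.10 and 40.6 CPM in brown wild type. Its log2 difference of 1.69 had an SE of 0.92 and a 95% interval of -0.39 to 3.77 (edgeR adjusted p = 0.360). The highest value stood in labelled knockout library 4, which also held the epithelial markers given above, and without it the log2 difference was 0.48. The part of those markers in the Dio2 value was not tested. Cox8b had 471.6, 537.4, 603.9 and 624.2 CPM in brown labelled knockout and 466.4, 476.8, 448.0 and 430.3 CPM in wild type (log2 0.29, SE 0.11, edgeR adjusted p = 0.207), with only library 1 inside the wild-type range. Kcnk3 (log2 0.19, SE 0.12), Cox7a1 (0.04, SE 0.13) and Eva1a (-0.09, SE 0.24) overlapped between the groups.

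Leaving out labelled knockout library 1 changed these calls, whereas leaving out any other brown library left none of the 9 genes called. Library 1 had the least Il33 of all brown libraries (0.413 CPM), so Il33 gives no ground for removing it. Without it, 5 of the 9 genes passed the edgeR test beside 18.1% of 16071 genes: Pank1 (log2 1.11, SE 0.19, adjusted p = 0.00549), Slc29a1 (0.93, SE 0.14, adjusted p = 0.00286) and Cox8b (0.36, SE 0.093, adjusted p = 0.0245) rose, and Otop1 (-2.48, SE 0.46, adjusted p = 0.0135) and Letmd1 (-0.37, SE 0.11, adjusted p = 0.0364) fell. The share higher was 9.66% and the share lower 8.41% of all genes. DESeq2 and limma-voom without that library named the same 5 genes, beside 23.4% and 17.8% of all genes. Skeletal muscle markers spanned nearly the same range in the brown groups, at 2530 to 4238 CPM in labelled knockout and 2481 to 4252 CPM in wild type, and none of 14 tested genes was called. The 2 highest muscle sums were those of labelled knockout library 1 (4238 CPM) and wild-type library 1 (4252 CPM). Labelled knockout library 1 had the lowest general adipocyte sum (11295 CPM, against 12575 to 14274 CPM in the other brown libraries). Its brown adipocyte sum was also the lowest (3586 against 4684 to 9177 CPM), and its adipose progenitor sum the highest (788 against 418 to 608 CPM). Its macrophage, endothelial and red blood cell sums lay within the range of the others. The part of these markers in the calls was not tested.

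**Figure D3:**
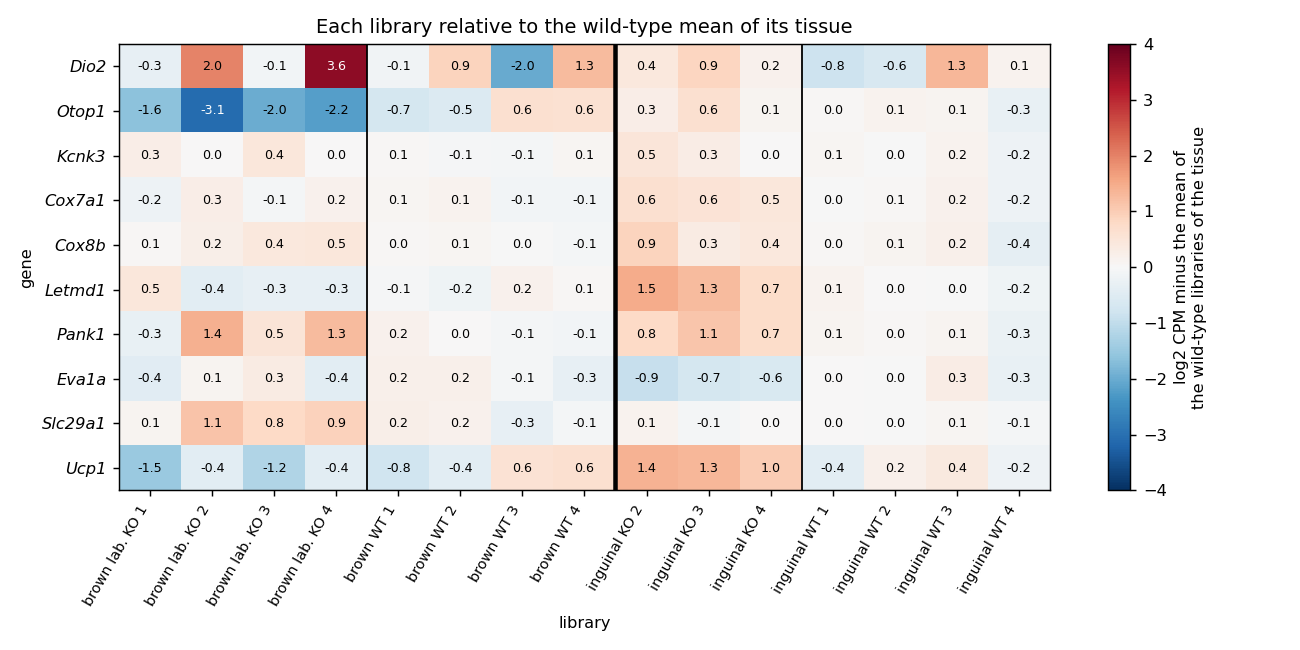
Log2 CPM of each gene in each library minus the mean of the wild-type libraries of the same tissue, with Ucp1 in the bottom row, for brown labelled knockout, brown wild-type, inguinal knockout and inguinal wild-type libraries from left to right. Otop1 is between -3.07 and -1.63 in the 4 brown labelled knockout libraries, and Letmd1 is above 0 in brown labelled knockout library 1, below 0 in the other three and above 0 in all 3 inguinal knockout libraries.

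The knockout effects of the 2 tissues were compared in 1 model as the inguinal effect minus the brown effect, within which the age difference between the tissues cannot be told apart from the tissue. Otop1 and Letmd1 were the 2 genes of the 9 that passed, beside 9% of 16858 genes tested in either direction and 4.8% as positive differences. For Otop1 the effect was 0.35 in inguinal and -2.27 in brown tissue, and the difference was 2.60 (SE 0.48, edgeR adjusted p = 0.00606). For Letmd1 the effect was 1.21 in inguinal and -0.13 in brown tissue, and the difference was 1.31 (SE 0.27, edgeR adjusted p = 0.00816). Ucp1 differed in the same direction (2.15, SE 0.47, edgeR adjusted p = 0.0147). Pank1 had nearly equal estimates in both tissues (difference 0.01), with a 95% interval of -0.81 to 0.84 that leaves room for a difference of either sign. Slc29a1 (-0.74, edgeR adjusted p = 0.0715), Cox7a1 (0.50, edgeR adjusted p = 0.0695) and Eva1a (-0.67, edgeR adjusted p = 0.191) did not pass. DESeq2 called 4 of the 9, Cox7a1 and Slc29a1 in addition, beside 13.8% of all genes. Slc29a1 also passed without brown labelled knockout library 1 (-0.89, edgeR adjusted p = 0.00159), and Cox7a1 without brown labelled knockout library 2 (0.58, edgeR adjusted p = 0.0462).

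The cytochrome c oxidase isoforms were set against their ubiquitous paralogues within each library, a ratio that no scaling between libraries affects. The log2 ratio of Cox7a1 to Cox7a2 reads was -0.124, -0.210 and -0.314 in inguinal knockout, against -0.930, -0.800, -0.769 and -1.22 in inguinal wild type. The groups did not overlap, and the mean was -0.216 ± 0.096 in knockout (SD, n = 3) and -0.930 ± 0.206 in wild type (SD, n = 4), a difference of 0.71 (two-sided exact permutation p = 0.0286, the smallest this design can give, 0.0381 after Benjamini-Hochberg adjustment over 4 tests). The log2 ratio of Cox8b to Cox8a was 0.137, -0.176 and -0.168 in inguinal knockout and -0.686, -0.512, -0.520 and -1.04 in wild type, again without overlap (difference 0.62, exact permutation p = 0.0286, adjusted 0.0381). Knockout library 2 was the only inguinal library with more Cox8b than Cox8a reads.

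In brown adipose tissue the Cox8b to Cox8a ratio was -0.287, -0.320, -0.335 and -0.231 in labelled knockout and -0.437, -0.453, -0.578 and -0.528 in wild type, with no overlap and a difference of 0.21 (exact permutation p = 0.0286, adjusted 0.0381). Here labelled knockout library 1 lay with the other libraries of its label. The Cox7a1 to Cox7a2 ratio was -0.293, -0.0838, -0.145 and -0.0864 in labelled knockout and -0.199, -0.281, -0.303 and -0.268 in wild type, where library 1 fell into the wild-type range and the difference of 0.11 had an exact permutation p of 0.114. Without library 1 this difference was 0.16 (exact permutation p = 0.0286).

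**Figure D4:**
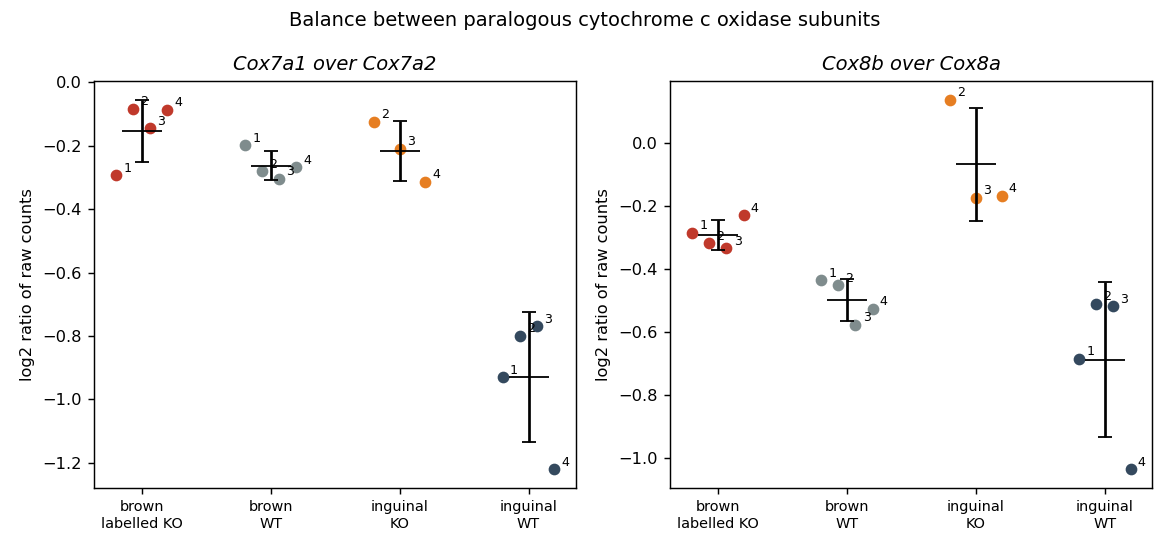
Log2 ratio of raw counts of Cox7a1 over Cox7a2 (left) and of Cox8b over Cox8a (right) in each library, with the group mean and SD. Inguinal knockout libraries lie above all inguinal wild-type libraries in both panels, and brown labelled knockout libraries lie above all brown wild-type libraries for Cox8b over Cox8a.

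The other 14 tested cytochrome c oxidase subunit genes moved little with the genotype. In inguinal adipose tissue none was higher and 1 was lower in the knockout, against 15.3% and 13.3% of all genes: Cox4i2, the lung-type subunit 4 isoform (log2 -0.71, SE 0.17, edgeR adjusted p = 0.00601). Their median log2 change was 0.06. The ubiquitous partners Cox7a2 (-0.15, SE 0.085) and Cox8a (-0.05, SE 0.092) did not pass. In brown adipose tissue none of the 14 was called (median 0.03). Between the wild-type tissues 13 of the 14 were higher in brown tissue, where 30.7% of all genes were, and Cox4i2 was lower, with a median of 0.68. The list holds the muscle isoform Cox6a2 (log2 3.86, SE 0.25), and the skeletal muscle markers that were higher in brown wild type are given above; their part in these differences was not tested.

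**Figure D5:**
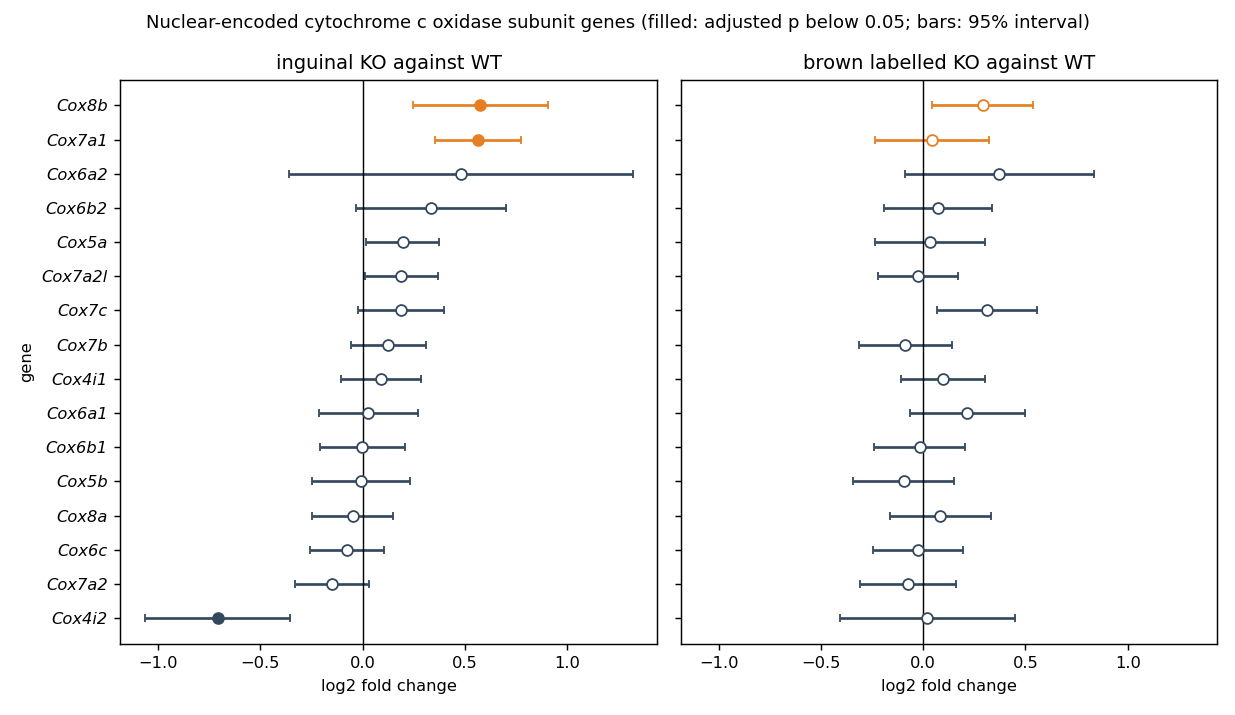
Log2 fold change with 95% interval of each tested nuclear-encoded cytochrome c oxidase subunit gene, in inguinal knockout against wild type (left) and in brown labelled knockout against wild type (right). Filled symbols had an edgeR adjusted p below 0.05, and Cox8b and Cox7a1 (orange) are the only 2 filled on the positive side of the inguinal panel.

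Around Dio2, 8 of 15 tested genes of thyroid hormone handling and action rose in the inguinal knockout and none fell, where 15.3% of all genes rose and 13.3% fell, with a median log2 change of 0.36 against -0.02 for all genes. They included Thra, the thyroid hormone receptor alpha (0.79, SE 0.096, edgeR adjusted p = 6.76e-05), Usp20, a deubiquitinase reported to stabilise the deiodinase (0.73, SE 0.12), Thrsp, a thyroid hormone-responsive lipogenic gene (0.60, SE 0.11), the coactivator Ncoa1 (0.54, SE 0.096), the receptor beta gene Thrb (0.49, SE 0.13) and the hormone and amino acid transporter Slc16a10 (0.45, SE 0.11). The corepressor gene Ncor1 and the receptor gene Rxra were the others that rose. Dio2 itself did not pass, as given above. The gene lists were chosen with earlier results of these data known, so such shares are a description and no independent support. In brown adipose tissue none of 18 was called (median 0.17). The effects on 2 of 19, Slc16a10 and Usp20, differed between the tissues, a share near the 9% of all genes.

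Among the relatives of Kcnk3 and Otop1, 6 of 15 listed genes were expressed highly enough to be tested in inguinal tissue. Kcnk4, a mechanosensitive potassium channel, rose (log2 1.60, SE 0.28, edgeR adjusted p = 0.000945) and Kcnk2, a related channel, fell (-0.75, SE 0.12, edgeR adjusted p = 0.000649), with a list median of -0.50. These 2 of 6 are a share near the 28.6% of all genes called. In brown tissue none of 5 was called. The effect on Kcnk4 differed between the tissues (2.37, SE 0.47, edgeR adjusted p = 0.00636), with -0.79 in brown tissue.

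Around Pank1, 4 of 12 coenzyme A genes rose and 3 fell in the inguinal knockout, beside 15.3% and 13.3% of all genes, with a median of 0.14. The synthase Coasy (log2 0.67, SE 0.096, edgeR adjusted p = 0.000225), the ligase Ppcs (0.42, SE 0.10), the mitochondrial coenzyme A carrier Slc25a42 (0.50, SE 0.13) and the coenzyme A hydrolase Nudt7 (0.40, SE 0.090) rose. The vitamin transporter Slc5a6, which carries pantothenate into cells, fell (-0.89, SE 0.087, edgeR adjusted p = 1.25e-05), as did the pantetheinase Vnn1 (-1.06, SE 0.28) and another kinase gene, Pank3 (-0.49, SE 0.16). In brown tissue none of 12 was called (median -0.39). The kinase paralogue Pank2 had -0.43 (SE 0.096, edgeR adjusted p = 0.0851) in brown and 0.19 in inguinal tissue, and this difference passed (0.60, SE 0.12, edgeR adjusted p = 0.00581), unlike that of Pank1.

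Letm1, the inner membrane ion exchanger related to Letmd1, rose in the inguinal knockout (log2 0.90, SE 0.11, edgeR adjusted p = 7.01e-05) and differed between the tissues (1.25, SE 0.22, edgeR adjusted p = 0.00320), with -0.37 in brown tissue. Letm2 did not pass in either tissue. The Eva1a relatives Eva1b (-0.26) and Eva1c (-0.22) did not pass in inguinal tissue, and Eva1c had 1.24 (edgeR adjusted p = 0.0775) in brown tissue, with an effect that differed between the tissues (-1.49, edgeR adjusted p = 0.0179).

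Around Slc29a1, 3 of 12 nucleoside and adenosine genes rose and 3 fell in the inguinal knockout (median 0.07), beside 15.3% and 13.3% of all genes. The paralogue Slc29a2 (log2 0.58, SE 0.16), the adenosine kinase Adk (0.54, SE 0.083) and the receptor Adora1 (0.41, SE 0.11) rose, and the receptor Adora2a (-1.10, SE 0.12, edgeR adjusted p = 3.33e-05), the concentrative transporter Slc28a2 (-1.02, SE 0.12) and the lysosomal transporter Slc29a3 (-0.49, SE 0.11) fell. In brown tissue 1 of 13 was called, Slc28a2 (-0.78, SE 0.12, edgeR adjusted p = 0.0455, median of the list -0.17). The brown call on Slc28a2 lay at the threshold. It was lost in 7 of the 8 edgeR fits that left out 1 brown library and held only where labelled knockout library 1 was the one removed. In the 7 the log2 difference ran from -0.83 to -0.68 and the adjusted p from 0.0754 to 0.171. It was also lost with limma-voom (adjusted p = 0.0546) and with the replicate block (edgeR adjusted p = 0.0824).

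For the wider programme, 15 of 25 tested brown fat identity and thermogenic genes rose in the inguinal knockout and 4 fell (median 0.56), beside 15.3% and 13.3% of all genes. Those that rose included the fatty acid elongase Elovl3 (log2 4.31, SE 0.40), the thioesterase Acot11 (2.61, SE 0.32), the acyl-CoA synthetase Acsl5 (1.63, SE 0.13), the mitochondrial glycerophosphate dehydrogenase Gpd2 (1.41, SE 0.16), the enzyme Pm20d1 (1.32, SE 0.20), which conjugates amino acids with fatty acids, and Ucp1 (1.24, SE 0.17). Among those that fell were the creatine synthesis genes Gatm (-0.91) and Gamt (-0.79) and the adrenergic receptor gene Adrb3 (-0.75), while Adrb1 rose (0.96). This list too was chosen with earlier results of these data known, so its shares are a description and no independent support. In brown tissue 1 of 26 was called, Acot11, which fell (-1.13, SE 0.19, edgeR adjusted p = 0.0496), with a list median of -0.11. This call too was lost in the same 7 edgeR fits (log2 -1.23 to -1.001, adjusted p from 0.0994 to 0.171), with limma-voom (adjusted p = 0.0611), and in edgeR fits with a filter at a mean of 5 CPM (0.0595), non-robust dispersions (0.0506) or the replicate block (0.0824). The Acot11 effect differed between the tissues (3.71, SE 0.36, edgeR adjusted p = 7.01e-05).

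The genes most alike each of the 9 in their library-to-library deviations were named by Pearson's r of log2 CPM after removal of the group means, over 15 libraries and 10512 genes, as a description that shares libraries and their depth. Slc29a1 was nearest to Zfand2b (0.98), Pank1 to Pi4k2b and Mtfr1 (0.96 each) and Letmd1 to Uba1 (0.96) and Ogdh (0.95). In these 3 genes brown labelled knockout library 1 stood apart from the other libraries of its label, and its weight in r was not tested. Otop1 was nearest to Slc22a3 (0.94), Eva1a to Spred3 (0.95), Cox7a1 to Ctnna1 (0.93) and Mecr (0.92), and Kcnk3 to Inppl1 (0.91). Dio2 was nearest to Zkscan3 (0.88), and Ece1 (0.87) was among the 2 nearest to Cox8b. None of the 9 was among the 2 nearest genes of another.

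Reads of overlapping genes cannot be told apart where the strand setting of the counting is unknown. Of the 9 genes, Kcnk3 overlaps the transcript Gm9899 on the opposite strand (4250 reads over all libraries, against 131455 for Kcnk3) and Slc29a1 overlaps Gm17080 (746 reads, against 37777). Dio2 overlaps Gm26512, which is not analysed here, and Eva1a overlaps Gm15864, which had 0 reads.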

How the data were processed

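The deposited values are raw read counts per gene, whole numbers that the authors did not normalize, for 37991 Ensembl gene identifiers in 15 libraries. Per the labels' protocols, libraries were made with a stranded mRNA kit. Named without roles in the submitters' processing notes are the mm9 build, TopHat2 2.1.0, Subread, featureCounts and edgeR. The annotation release and strand setting were not given in the sources used here. The 9 genes and the gene and marker lists were chosen with earlier results of these data known.

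Counts were scaled by TMM factors and genes kept by filterByExpr (minimum count 10). Differences were tested with edgeR 4.0.16 (robust quasi-likelihood F-test, R 4.3.3), adjusted by the Benjamini-Hochberg method over all genes tested and called at 0.05. Each knockout comparison used the libraries of its own tissue, the wild-type comparison the wild-type libraries, and the difference all 4 groups. SE was taken as the absolute log2 change over the root of F, and 95% intervals use the t quantile at the degrees of freedom of the fit. All 9 genes passed the filter in every comparison. CPM values use TMM factors over all 15 libraries, and values per kb use the union of GENCODE M21 exons on GRCm38, which is not the authors' build. Isoform ratios used raw counts with a pseudocount of 0.5. Intervals cover the spread between libraries, and read totals are given with the results.

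Named were the 9 genes, Il33, Ucp1, their paralogues, and from each list up to 4 genes with the smallest p in the inguinal and up to 2 in the brown comparison. Genes from the lists outside this rule were named after their values were seen. Likeness named the 2 nearest genes with a symbol at a mean of at least 5 CPM, predicted genes left out. Alternatives were DESeq2 size factors, no filter, a filter at a mean of 5 CPM, DESeq2 1.42.0, limma-voom (limma 3.58.1), non-robust dispersions, a replicate block, 1 fit of all groups, and leaving out each library. Brown labelled knockout library 1 was left out together with DESeq2 and with limma-voom after seeing the data. Steps were tested on simulated data with known changes in 200 genes, fewer than the 4498 called in inguinal tissue. The shares recovered hold for that setting only. Of 2-fold changes, 50.75% were recovered in the brown comparison, 34.33% in the difference, 83.58% in the inguinal and 73.13% in the wild-type comparison. For 1.5-fold changes the shares were 10.45%, 4.48%, 62.69% and 53.73%. The comparisons thus differed in power in this setting, and their numbers of calls cannot be set directly against each other. No replicate pair agreed within sampling noise (lowest chi-square per degree of freedom 13.7).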

Additional observations from a re-analysis of the deposited data

Results flagged for a closer look

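Letmd1 in brown labelled knockout library 1, at 628.0 CPM, stood far from the other 3 libraries of its group, which lay between 338.6 and 367.6 CPM. The gap to the nearest library was 0.900 of the group's whole range. A gap large enough to be flagged arises by chance in about 1 of 20 groups. Of the 27 groups of 4 libraries looked at, 1 had such a gap.

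The knockout effect on Otop1 differed between the tissues, with an inguinal effect minus brown effect of 2.60 on the log2 scale (SE 0.48, edgeR quasi-likelihood adjusted p = 0.00606). Over the fits that left out 1 library the difference ran from 2.38 to 2.82 and stayed past the threshold.

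The knockout effect on Letmd1 differed likewise, by 1.31 (SE 0.27, edgeR quasi-likelihood adjusted p = 0.00816), and ran from 1.15 to 1.58 over the fits that left out 1 library, all past the threshold. Without brown labelled knockout library 1, the library named above, it was 1.58.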

How the results depend on the processing

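Of 635 results for the 9 genes under alternative settings, 584 kept their direction and their side of the threshold, 36 passed it anew, 1 lost it (Pank1 in inguinal tissue with all 4 groups in 1 fit) and 14 changed sign, none of them past the threshold. The sign changes were Cox7a1 in brown tissue without labelled knockout library 2 (-0.028, range with 1 library left out to 0.12), Eva1a in brown tissue without labelled knockout library 1 (0.016, and 0.026 with DESeq2) or 4 (0.011, range from -0.26), Slc29a1 in inguinal tissue without knockout library 2 (-0.023, range to 0.10), the Kcnk3 difference without inguinal knockout library 2 (-0.032, range to 0.20), and wild-type Dio2 without brown library 3 (0.11) or inguinal library 3 (0.38, range from -0.68). The Pank1 difference became -0.0017 with the replicate block, -0.22 without brown labelled knockout library 1 (range to 0.25), -0.09 without library 3, -0.04 without brown wild-type library 1, -0.10 without inguinal knockout library 3 and -0.07 without inguinal wild-type library 4. The causes were not tested.

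The number of the 9 genes called in brown tissue was 0, against 2 with DESeq2 or with all 4 groups in 1 fit, 0 to 5 with 1 library left out and 5 where library 1 was left out together with DESeq2 or limma-voom. For the difference it was 2, against 4 with DESeq2 and 2 to 3 with 1 library left out, and it was 5 to 7 in inguinal tissue and 6 to 7 between wild-type tissues with 1 library left out. Over all genes, brown calls numbered 41, against 67 without a filter, 1032 with DESeq2, 1151 with all 4 groups, 27 with limma-voom, 7 with the replicate block, 2905 without labelled knockout library 1 and 2 to 19 without any other library. Inguinal calls numbered 4498, against 2249 with all 4 groups, and calls of the difference 1517, against 2330 with DESeq2, 3571 without brown labelled knockout library 1 and 632 to 1727 without any other library. Scaling moved the median of all genes by less than 0.1.

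Isoform differences with 1 library left out ran from 0.088 to 0.16 (Cox7a1, brown), 0.62 to 0.77 (Cox7a1, inguinal), 0.18 to 0.23 (Cox8b, brown) and 0.50 to 0.68 (Cox8b, inguinal). The inguinal exact permutation p was then 0.0667 to 0.133, in designs that cannot go below 0.0667 (2 knockout libraries) or 0.1 (3 against 3). Paired by replicate number they were 0.71, 0.21 and 0.62 for inguinal Cox7a1, brown Cox8b and inguinal Cox8b, with exact permutation p of 0.25, 0.125 and 0.25, the smallest that 3 or 4 pairs allow. The replicate block changed 1 other call among the 9 genes, Otop1 in inguinal tissue (log2 0.35, edgeR adjusted p = 0.0274). The deviations of libraries with 1 number had r of 0.118, -0.0551, 0.197 and 0.109 for numbers 1 to 4 in brown tissue and from -0.13 to 0.07 in inguinal tissue. Of the knockout libraries 3 of 4 in brown and 1 of 3 in inguinal tissue were most alike the wild-type library of their own number, and the summed brown muscle markers were close by number (labelled knockout 4238, 3234, 2530 and 2944 CPM, wild type 4252, 3375, 2481 and 2852 CPM). This likeness is a hint from the data, not from the design. The correlation for number 2 was negative and no label ties the numbers to a shared source, so they were not taken as pairs. Eva1a, with 1.66 to 4.36 CPM, had the fewest reads and the least depth behind its values.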
